A study of Mus musculus with 6 samples.

Results

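The reads described here are those placed on the mouse tRNA-Tyr-GTA references, the tRNA copies that carry tyrosine and read its codons with the anticodon GTA. All references named Tyr-GTA were taken, which gave 5 of the 190 tRNA references in the data and 574 of the 46877 listed positions summed over libraries. The libraries were made from small RNA of whole mouse brain, 3 from wild-type (WT) animals and 3 from TRMT1L knockout (KO) animals. The RNA was total RNA depleted of ribosomal RNA and selected for sizes of 30 to 150 bp, and both genotypes carry these steps alike. How the knockout was made, the strain, the sex and the age were not given in the sources used here. The series describes the triplicates as biological, but the labels do not tie each library to an animal, so the p-values measure the spread between these libraries. The data hold tRNA references only, so neither the level of the TRMT1L transcript nor markers of brain cells could be used to check the labels.

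Transfer RNAs are heavily methylated, and reverse transcriptase that meets a methyl group on the pairing face of a base can stop, skip the base or insert a wrong one. TRMT1 places dimethylguanosine at position 26 of many tRNAs, and its paralogue TRMT1L acts on the neighbouring guanosine 27 of tRNA-Tyr. Tyrosine tRNA is also known for an intron in its genes, for a queuosine derivative at the wobble position 34, for methylguanosine at 37 and for methyladenosine at 58 in the T loop. The comparison asked whether reads over these positions, and the pieces of the tRNA that were recovered, differed between the genotypes.

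The sequences below are shown because they hold G27, the expected site, with G26 beside it. The T-loop adenosine at which most base changes were read also lies in them. They were read from the base counts, from 5′ to 3′, and positions count from 1 at the 5′ end of the reference. Capitals mark G at 26 and 27 in the 5′ part and A at 58 in the 3′ part.
Tyr-GTA-3, positions 1 to 33: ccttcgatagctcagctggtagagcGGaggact
Tyr-GTA-3, positions 40 to 76: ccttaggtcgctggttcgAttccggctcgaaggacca
Tyr-GTA-1, positions 51 to 60: tggttcgAat
Tyr-GTA-5, positions 45 to 56: ggtcgctggttc
The 37 bases of Tyr-GTA-2 from 40 to 76 matched Tyr-GTA-3 at every position, and so did the 33 bases of Tyr-GTA-4 from 1 to 33. Over the 10 positions they share, Tyr-GTA-1 and Tyr-GTA-3 differed by A59T, with the base of Tyr-GTA-1 first. The 12 bases of Tyr-GTA-5 held no difference from Tyr-GTA-3. The T at 33 is followed by the place of the anticodon at 34 to 36, which was listed for no library, so the anticodon itself comes from the reference name. RefSeq's table for GRCm38.p6 lists 10 mouse tRNA-Tyr-GTA genes of 86 to 93 bases, 6 of them on chromosome 13. The references carry no genome coordinates, the build behind them is not given in the sources used here, and the 5 copies were not paired with those genes.

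The libraries differed in depth by genotype. Over all tRNA references, base calls came to 6151209, 6295061 and 6274159 per wild-type library and to 8295437, 7981301 and 8797395 per knockout library. Tyr-GTA made up between 0.0543% and 0.084% of these calls, and none of its listed positions reached 100 reads. By mean highest coverage Tyr-GTA-3 ranked 134 of 190 references. A position with fewer than 30 reads was not listed in the data, so every gap below means fewer than 30 reads and not 0.

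The 5 copies came down to 4 distinct sets of reads. Tyr-GTA-3 was listed on both sides of the anticodon, Tyr-GTA-2 only on the 3′ side and Tyr-GTA-4 only on the 5′ side. All 3 appeared in each of the 6 libraries. Tyr-GTA-2 had the same counts as Tyr-GTA-3 in 162 of 170 shared listed positions (95.3%), with coverages never more than 2 reads apart. Tyr-GTA-4 had the same counts as Tyr-GTA-3 in 93 of 105 (88.6%), with the largest difference of 10 reads at positions 32 and 33 in knockout replicate 1. These reads cannot be assigned to one copy, and Tyr-GTA-3 stands for the group below. Tyr-GTA-1 was listed only in knockout replicates 2 and 3, and Tyr-GTA-5 only in wild-type replicate 2.

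Tyr-GTA-3 had more listed positions in the knockout libraries. Of its 76 positions, 30, 35 and 37 were listed in the wild-type libraries and 67, 53 and 54 in the knockout libraries. The groups do not overlap, which held for 14.2% of the 190 references, and the knockout libraries also listed more positions over all references (8025 to 8793, against 6873 to 7880). The excess on Tyr-GTA-3 lay in the 5′ part, where 1, 3 and 15 positions were listed in wild-type libraries against 31, 24 and 32 in knockout ones. The 3′ counts of listed positions overlapped, at 29, 32 and 22 for wild-type libraries and 36, 29 and 22 for knockout libraries.

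**Figure D1:**
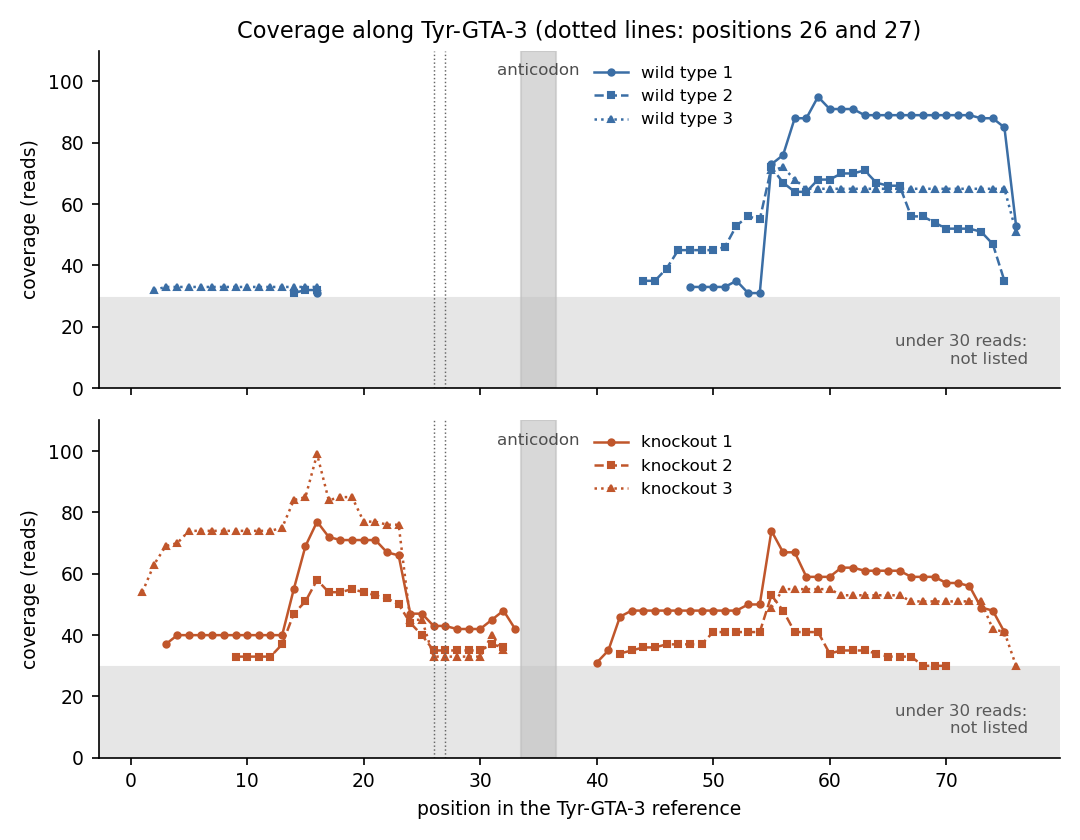
Coverage in reads (vertical axis) at each position of Tyr-GTA-3 (horizontal axis), with 1 line per library, wild type above and knockout below; the pale grey area is the range under 30 reads that was not listed, the darker bar marks the anticodon at 34 to 36, and dotted lines mark 26 and 27. The 3 wild-type lines stop at position 16, the 3 knockout lines go on to 32 or 33, and no line crosses the anticodon.

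Only 17 positions were listed in all 6 libraries, namely position 16 and positions 55 to 70. Positions 17 to 32, which make 16, were listed in all 3 knockout libraries and in no wild-type library, and no position showed the opposite pattern. Over all references, 2.35% of 9826 positions were listed in 3 knockout and 0 wild-type libraries, and 0.0407% the other way round. The longest gap ran from 17 to 47, 17 to 43 and 17 to 54 in the wild-type libraries. It ran from 34 to 39, 33 to 41 and 33 to 54 in the knockout libraries, so the anticodon stayed unlisted in both genotypes. The anticodon was listed in all 6 libraries for 0 of the 5 Tyr-GTA references, against 34.3% of the 178 cytosolic references.

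At position 16, in the D loop, the wild-type libraries had 31, 32 and 33 reads and the knockout libraries 77, 58 and 99. Every knockout library lay above every wild-type library there, as at 52% of the 6130 positions listed in all libraries. At position 17 the knockout libraries had 72, 54 and 84 reads. Against the 29 reads that an unlisted wild-type position allows, this was at least 2.41-fold higher in reads and at least 1.79-fold higher per 1000000 base calls. At position 20, a D-loop base that is often dihydrouridine, the knockout libraries had 71, 54 and 77 reads, at least 1.73-fold above the wild-type bound per 1000000 base calls. That bound shrank along the D stem, to at least 1.64-fold at 23 and at least 1.17-fold at 24.

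At positions 26 and 27, both guanosines, the knockout libraries had 43, 35 and 33 reads. This is above the wild-type bound in reads but not per 1000000 base calls, so at the knockout's greater depth no difference in coverage could be given there. Each knockout read carried G at both positions, with upper Wilson 95% bounds on the mismatch share of 8.2% to 10.4%. No read started at 26 or 27 and none had a deletion or an insertion there. With both positions unlisted in the wild type, the genotypes could not be compared at the expected site.

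No mismatch was read anywhere in the 5′ part of Tyr-GTA-3 in any library. At position 20 the upper Wilson 95% bounds in the knockout libraries were 5.13%, 6.64% and 4.75%, and no wild-type value exists. A single deletion was listed, of 1 read among 52 at position 22 in knockout replicate 2. At position 31 of Tyr-GTA-3, 3, 2 and 8 knockout reads had coverage but no base call, while Tyr-GTA-4 had none there.

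A start was counted only where its own position and the next were both listed. Position 1 thus had a count only in knockout replicate 3, in which 54 reads started at position 1 and 9 at position 2. Listing began at position 3 in knockout replicate 1, with 11 starts among 37 reads, and at 9 in knockout replicate 2, with 5 among 33. The other reads there began at unlisted positions. Starts in the D loop were common to all 3, with 15, 10 and 9 reads at position 14, 14, 4 and 1 at position 15 and 8, 7 and 14 at position 16 in replicates 1, 2 and 3. In wild-type replicate 3, the only one listed from position 2, 3 of the 32 reads covering position 2 started there. The others among those reads began at position 1, which was unlisted in that library. It had 1 start at 3 and 0 at each position from 4 to 15. Wild-type replicate 2 had 2 starts at 14 and 1 at 15. No count was made in the 5′ part of wild-type replicate 1, where only position 16 was listed. At position 14 the shares of covering reads were thus 6.45% and 0% in wild-type replicates 2 and 3 and 27.3%, 21.3% and 10.7% in the knockout, which did not overlap. Without wild-type replicate 1, the groups lay apart at 21.9% of 1745 read-start sites of all references. The test without wild-type replicate 1, with means of 3.23% and 19.8%, gave an unadjusted p of 0.087 and a limma-moderated adjusted p of 0.653. At position 15 the shares overlapped, at 3.12% and 0% in those wild-type libraries and 20.3%, 7.84% and 1.18% in the knockout (limma-moderated adjusted p = 0.768). Knockout replicate 1 alone allowed a count at position 32, with 3 starts among 48 reads.

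Read ends were obtained from the coverage lost between neighbouring positions after adding the new starts. The measure is approximate: 10 of 521 steps gave a negative number, among them -3, -2 and -7 at position 30 in the knockout libraries. In the knockout libraries 19, 6 and 31 reads ended at position 23, of 66, 50 and 76 that covered it. These were 28.8%, 12% and 40.8% of the reads there, and position 23 held more ends than any other position from 17 to 29 in each knockout library. A further 5, 4 and 19 reads ended at 16 and 4, 5 and 12 at 25. From 26 to 29 at most 1 read ended at any position by this measure. The coverage was 43, 35 and 33 reads at 26 and 42, 35 and 33 at 30. The wild type was listed at 16 but not from 17 to 32, so no such count could be made for it. Its 31, 32 and 33 reads at 16 fell to under 30 at 17.

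**Figure D2:**
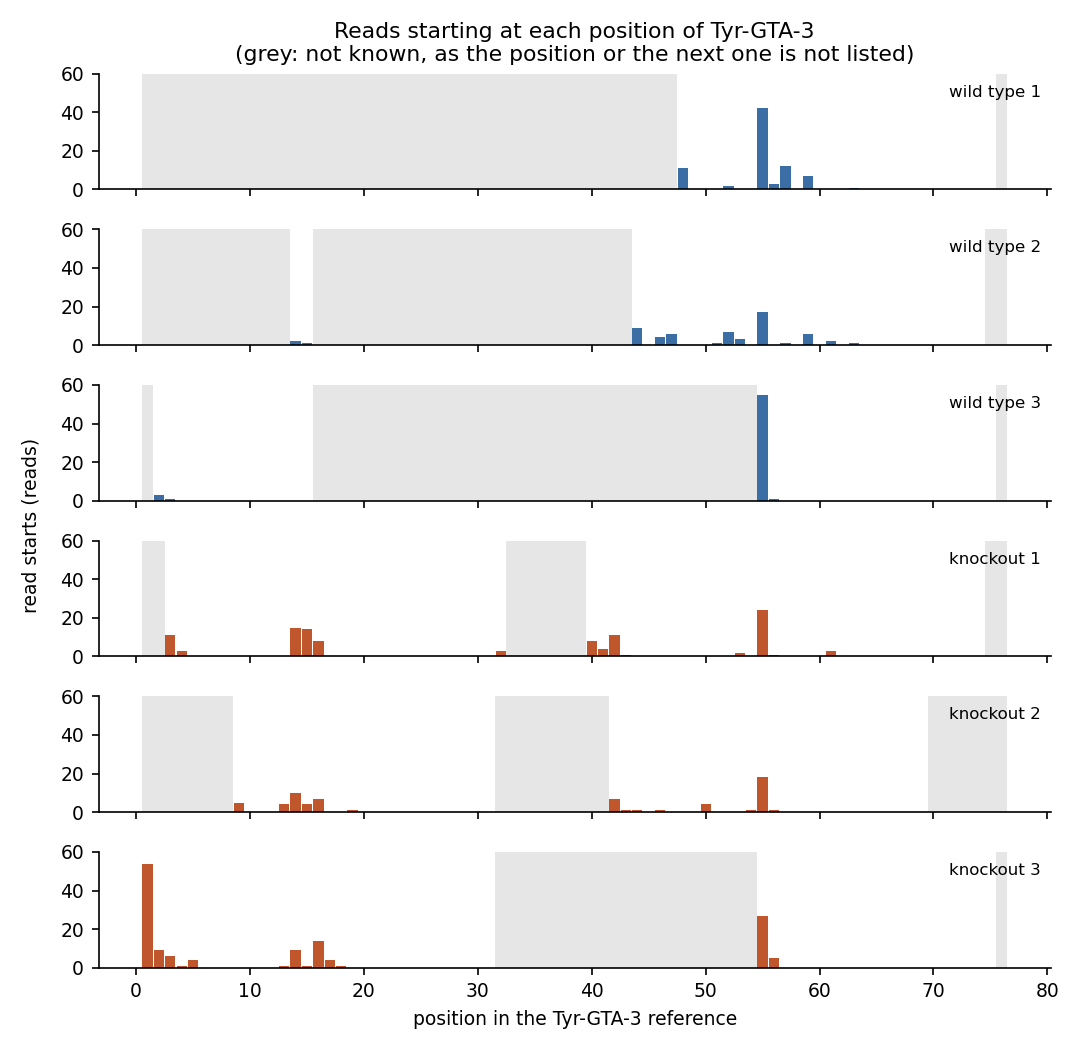
Number of reads that start at each position of Tyr-GTA-3 (vertical axis, reads, and horizontal axis, position), with 1 panel per library. Grey marks where no count was made because the position or the next one was not listed. All 6 libraries share a peak at 55; the 3 knockout libraries have 15, 10 and 9 starts at 14, where wild-type replicate 2 has 2, replicate 3 has 0 and replicate 1 is not known.

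Among the starts that were counted, the most common of the 3′ part was at position 55, in the T loop, in all 6 libraries. At position 55, 42 of 73, 17 of 72 and 55 of 71 wild-type reads started there, and 24 of 74, 18 of 53 and 27 of 49 knockout reads. The shares were 57.5%, 23.6% and 77.5% for wild-type libraries and 32.4%, 34% and 55.1% for knockout libraries, and the groups overlapped. The means were 52.9% ± 27.2 (SD, n = 3) and 40.5% ± 12.7 (SD, n = 3). The difference of -12.37 percentage points was within the spread between libraries (adjusted p = 0.821 in a quasi-binomial test whose dispersion limma moderated). Without wild-type replicate 3 the difference was -0.07 points. Without wild-type replicate 2 it was -27.0 points with the groups apart (unadjusted p = 0.0247, limma-moderated adjusted p = 0.794), as at 21.2% of 1680 read-start sites of all references. From 55 to 76 is a span of 22 bases, the most of the reference that such a read can cover.

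A start at the corresponding T-loop position was also found on other tRNAs. The 38 cytosolic references with this start known in all libraries include Tyr-GTA-2 and Tyr-GTA-3. Over them the median share of reads starting there was 30.0% in the wild type and 38.8% in the knockout. Tyr-GTA-3 ranked 14 among them in the wild type and 18 in the knockout.

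Starts at 59, the position just 3′ of A58, were read only in wild-type libraries. In wild-type replicates 1, 2 and 3 they made up 7 of 95, 6 of 68 and 0 of 65 reads, and in the knockout replicates 0 of 59, 0 of 41 and 0 of 55. Wild-type replicate 3 was thus at the knockout's value. The means were 5.4% ± 4.73 (SD, n = 3) and 0%, with an unadjusted p of 0.0365 and an adjusted p of 0.633 in the limma-moderated quasi-binomial test. The upper Wilson 95% bounds in the knockout libraries were 6.11%, 8.57% and 6.53%.

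Starts at 57 numbered 12 of 88, 1 of 64 and 0 of 68 among wild-type reads, and no knockout library had any (mean difference -5.07 points, limma-moderated adjusted p = 0.646). A single wild-type library thus carried most of them. Without wild-type replicate 3 the groups lay apart at 57 and at 59, with unadjusted p of 0.0283 and 0.0137 and a limma-moderated adjusted p of 0.473 for both. In that setting 24.8% of 1784 read-start sites lay apart. Upstream of the T loop, starts were counted only from the first listed position. This was 48 and 44 in wild-type replicates 1 and 2 and 40 and 42 in knockout replicates 1 and 2. The largest groups counted were 11 reads at 48 in wild-type replicate 1 and 9 at 44 in wild-type replicate 2. In the knockout they were 11 at 42 in replicate 1 and 7 at 42 in replicate 2. Knockout replicate 1 also had 8 starts at 40 and 4 at 41, and at 52 there were 2 and 7 in wild-type replicates 1 and 2 and 0 in knockout replicates 1 and 2. In replicate 3 of both genotypes nothing was listed between the 5′ part and position 55.

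At the 3′ end, position 76, the final A of the added CCA, was covered by 53 and 51 reads in wild-type replicates 1 and 3 and by 30 in knockout replicate 3. It was not listed in the other 3 libraries. In wild-type replicate 3 the coverage stayed at 65 reads from 58 to 75 and was 51 at 76. In wild-type replicate 2 it fell from 66 reads at 66 to 35 at 75, and in knockout replicate 2 it fell to 30 at 70, the last listed position.

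Position 58 was the only site of the Tyr-GTA references with mismatches in all 6 libraries. Every mismatched call was a T in place of A. There were 7 among 88, 11 among 64 and 4 among 65 base calls in the wild type. In the knockout there were 14 among 52, 8 among 41 and 4 among 55. The libraries did not sort by genotype, since the lowest knockout share lay between 2 wild-type ones.

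The mismatch shares at A58 were 7.95%, 17.2% and 6.15% in the wild type, a mean of 10.4% ± 5.92 (SD, n = 3). In the knockout they were 26.9%, 19.5% and 7.27%, a mean of 17.9% ± 9.92 (SD, n = 3). This gap of 7.47 points was smaller than the range within either genotype (limma-moderated adjusted p = 0.65, unadjusted p = 0.327). It rested on single knockout libraries: without replicate 1 it was 2.96 points, and without replicate 3 it was 12.8 points with the groups apart (limma-moderated adjusted p = 0.928 and 0.513). In that last setting 12.4% of 275 mismatch sites lay apart. In knockout replicate 1, 7 of 67 reads (10.4%) also had a 1-base deletion at this A, listed at position 57. The other 5 libraries had 0 (limma-moderated adjusted p = 0.523). Counting reads with no base call at 58 together with the mismatches gave 21 of 59 in that library. With them the means were 10.4% and 20.8%, which still overlapped (exact two-sided permutation test, p = 0.3).

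**Figure D3:**
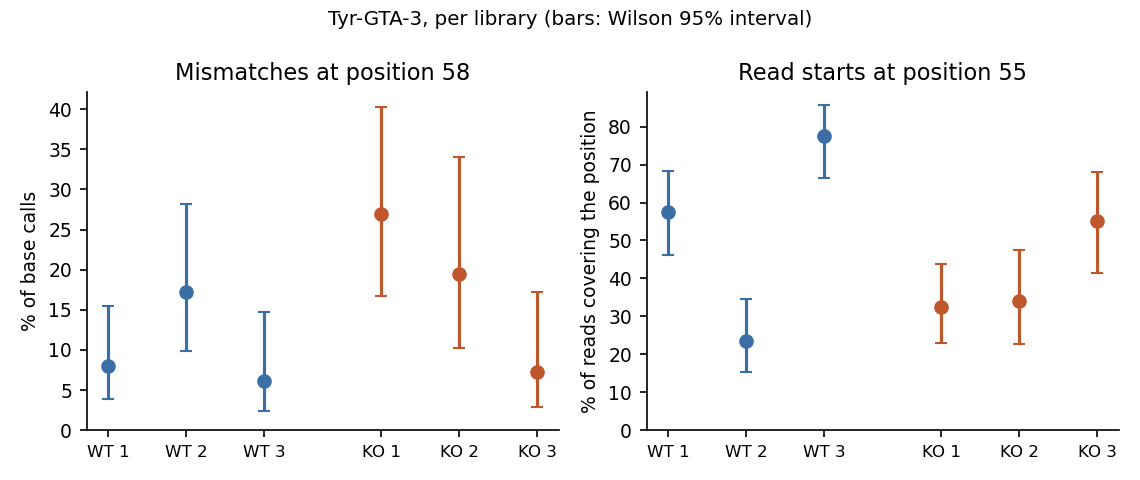
Per library and genotype, the share of base calls at position 58 of Tyr-GTA-3 that were mismatched (left, %) and the share of reads covering position 55 that start there (right, %), with Wilson 95% intervals for counting error only. The genotypes overlap in both panels, from 6.15% to 26.9% on the left and from 23.6% to 77.5% on the right.

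This adenosine was listed in all libraries on 37 cytosolic references, which include Tyr-GTA-2 and Tyr-GTA-3 (35 without Tyr-GTA). Over these 37 references the median mismatch share at A58 was 8.18% in the wild type and 8.32% in the knockout. T was the commonest wrong base on 26 of them. The median difference between genotypes was 0.97 points, and on 1 reference all knockout shares were higher than all wild-type shares. Tyr-GTA-1, with an A at 59, had 0 mismatches among 30 calls at position 58 in knockout replicate 3, with an upper Wilson 95% bound of 11.3%.

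The other changes in the 3′ part were each found in 1 library, apart from position 74. In wild-type replicate 2, Tyr-GTA-3 had 4 G among 45 calls at C50 and 4 C among 46 at T51. At the same positions of Tyr-GTA-5 that library had 3 T among 38 calls and 5 mismatches among 38, of which 4 were A. The other 3 libraries listed there, wild-type replicate 1 and knockout replicates 1 and 2, had 0 mismatches at 50 and 51 of Tyr-GTA-3. In knockout replicate 1 there were 5 G among 47 calls at T43, which no wild-type library listed. A single mismatch at 47, in wild-type replicate 2, and 2 at position 41 of Tyr-GTA-2, in knockout replicate 1, were the remaining ones.

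Insertions were found at 3 positions. At position 37, where tRNA-Tyr carries a methylated guanosine, only Tyr-GTA-2 in wild-type replicate 2 was listed. It had 33 reads, of which 25 gave a base call, all G, and 5 carried an insertion of 2 bases, with a mean base quality of 27.1. At position 45, 4 of 35 reads in wild-type replicate 2 had an inserted T. At position 74, in the CCA end, an inserted TT was read in 1 of 88, 7 of 47 and 0 of 65 wild-type reads and in 4 of 48 and 1 of 42 reads of knockout replicates 1 and 3. Knockout replicate 2 was not listed there, so the position entered no test of all 6 libraries. Without that library the means were 5.34% in the wild type and 5.36% in the knockout (limma-moderated adjusted p = 0.943).

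With 100 reads required in each library no Tyr-GTA site could be tested, so sites were tested at the listing minimum of 30. This allowed 1 distinct mismatch site, 5 distinct read-start sites and 1 distinct deletion site on Tyr-GTA, and no insertion site. Of these, 0 passed an adjusted p of 0.05 in the limma-moderated test, and 1 distinct read-start site, at 59, had an unadjusted p under 0.05. Over all references, 0% of 256 mismatch sites, 0.235% of 1702 read-start sites and 0% of 110 deletion sites passed. The unadjusted threshold was passed by 8.59%, 7.64% and 8.18% of them. The 2 further read-start sites, at 56 and 61, had means of 1.78% and 4.22%, and of 0.952% and 1.61%, in wild type and knockout.

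The 5′ part gave more reads in the knockout libraries and the 3′ part fewer per 1000000 base calls. The highest coverage of the 5′ part of Tyr-GTA-3 was 31, 32 and 33 reads in wild-type libraries and 77, 58 and 99 in knockout ones. The groups did not overlap (32 ± 1 and 78 ± 20.5, SD, n = 3), and the exact permutation p, two-sided, was 0.1, the lowest this design can reach. Over all references, 66.7% of 5′ parts had all knockout libraries higher in reads. Per 1000000 base calls the values were 5.04, 5.08 and 5.26 against 9.28, 7.27 and 11.2, and here 28.3% of 5′ parts lay apart in this direction.

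The highest coverage of the 3′ part was 95, 72 and 72 reads in wild-type libraries and 74, 53 and 55 in knockout ones. In reads the groups overlapped (79.7 ± 13.3 and 60.7 ± 11.6, SD, n = 3; exact two-sided permutation test, p = 0.3). Per 1000000 base calls they were 15.4, 11.4 and 11.5 against 8.92, 6.64 and 6.25, and no longer overlapped. Over all references 9.32% of 3′ parts lay lower in the knockout by that measure, and 0.847% did in reads.

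**Figure D4:**
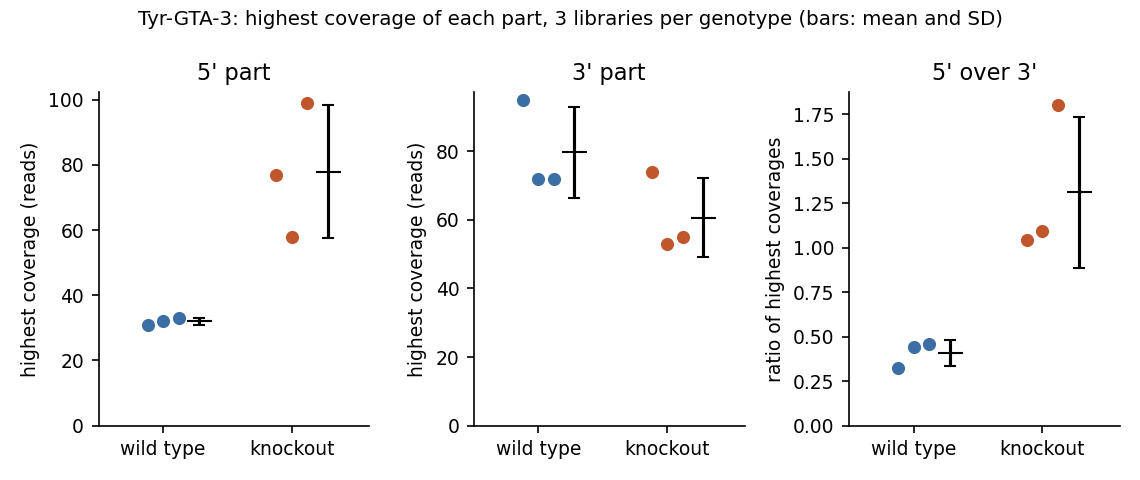
Highest coverage of the 5′ part (left, reads) and the 3′ part (middle, reads) of Tyr-GTA-3 and their ratio (right), with 1 point per library and the mean and SD beside each group. The genotypes lie apart in the left and right panels and overlap in the middle one.

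Tested with edgeR's quasi-likelihood test on the parts of all references, neither part passed the threshold. The log2 fold change was 0.80 (SE 0.365, adjusted p = 0.263) for the 5′ part and -0.85 (SE 0.264, edgeR adjusted p = 0.0977) for the 3′ part. Tyr-GTA-4 and Tyr-GTA-2 gave the same values because they share these highest coverages. Of 291 parts tested, 12.7% were called, 8.25% higher and 4.47% lower in the knockout, and the median log2 fold change was 0.09. Fewer molecules of a fragment and poorer recovery of it cannot be told apart in these libraries.

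The 5′ to 3′ balance of Tyr-GTA-3 differed by genotype in each library. The ratio of the highest 5′ to the highest 3′ coverage was 0.326, 0.444 and 0.458 in wild-type libraries and 1.04, 1.09 and 1.8 in knockout libraries. All 3 knockout ratios were above all 3 wild-type ratios, and the 3′ part was the larger in the wild type only. On the log2 scale the means were -1.30 ± 0.271 and 0.35 ± 0.437 (SD, n = 3), a difference of 1.65, for which the exact permutation p, two-sided, was again 0.1. An earlier account of these data already gave the direction, so this is a description. Of 93 references with both parts listed in all libraries, 15.1% lay apart with a higher ratio in the knockout and 8.6% with a lower one, and the median difference was 0.10.

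**Figure D5:**
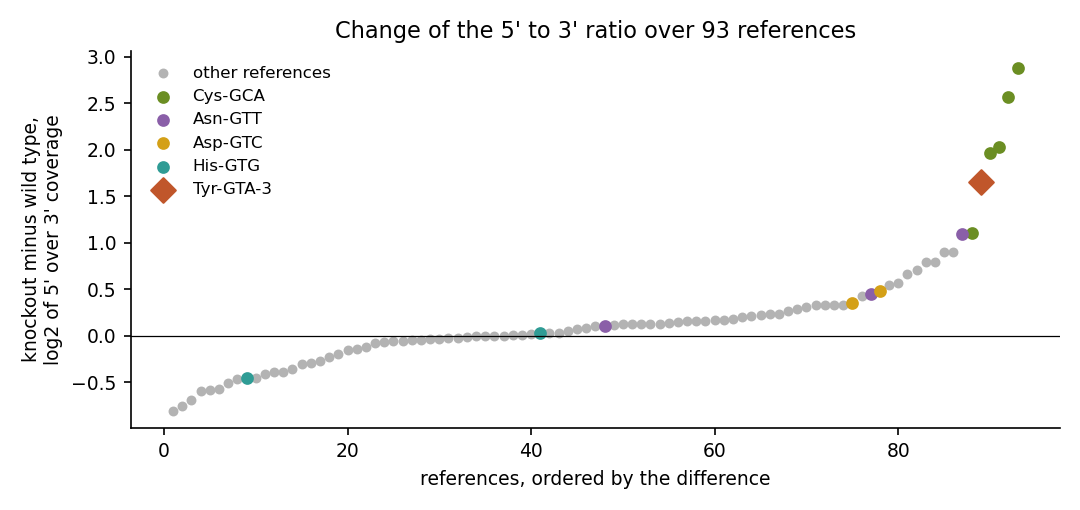
Knockout minus wild type of the log2-transformed 5′ to 3′ balance (vertical axis) for 93 references ordered by it (horizontal axis), with Tyr-GTA-3 and 4 other families coloured. Tyr-GTA-3, at 1.65, has the fifth highest value, below 4 Cys-GCA references.

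Tyr-GTA-3 had the fifth highest difference of these references, after 4 tRNA-Cys-GCA references. The 5 Cys-GCA references with both parts listed had a median difference of 2.03 and a range of 1.11 to 2.88. The other tRNAs whose wobble base can carry queuosine had smaller medians, 0.44 for 3 Asn-GTT references, 0.41 for 2 Asp-GTC references and -0.22 for 2 His-GTG references. These differences between families were not tested.

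In edgeR's test of parts, 13 of 18 Cys-GCA 5′ parts and 1 of 3 Asn-GTT 5′ parts were called higher. The same was called for 0 of 2 Tyr-GTA, 0 of 4 Asp-GTC and 0 of 3 His-GTG 5′ parts. The 2 Tyr-GTA 5′ parts, of Tyr-GTA-3 and Tyr-GTA-4, share their highest coverages. A part unlisted in a library entered as 0 there. The Tyr-GTA parts tested were listed in every library, but values of other references may rest on such zeros. The median log2 fold changes of the 5′ parts were 2.90 for Cys-GCA, 0.36 for Asn-GTT, 0.03 for Asp-GTC, 0.09 for His-GTG and 0.80 for Tyr-GTA. For all 145 5′ parts tested, 21 were called higher and 10 lower, with a median of 0.26. For the 3′ parts the medians were 0.19 for Cys-GCA, -0.25 for Asn-GTT, -0.59 for Asp-GTC, 0.16 for His-GTG and -0.85 for Tyr-GTA, and -0.02 over all 146 3′ parts.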

How the data were processed

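The deposited values are raw counts at each tRNA position (coverage, base calls by letter, stops of reverse transcription, deletions, insertions) and a mean and median base quality score, per the file headers. The authors' aligner, tRNA reference set and genome build are not given in the sources used here; the submitters' processing notes name GATK 3.5 without its role. Positions under 30 reads were not listed. A stop is listed 1 position after the read start and was moved back by 1. Highest coverages reached 8032 reads in these libraries, near which the depth stops rising.

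Mismatch, read-start, deletion and insertion rates were tested per site over all references with a quasi-binomial model, its dispersion moderated by limma 3.58.1 (R 4.3.3) and floored at 1. The pooled rate had to reach 1%, and p-values were Benjamini-Hochberg adjusted. The coverage minimum set first, 100, left no Tyr-GTA site, so the listed alternative of 30 is reported. Parts, split at the anticodon (taken as 34 to 36 where not found), were tested by edgeR 4.0.16 with TMM and filterByExpr, with DESeq2 1.42.0 as an alternative. Wilson 95% intervals cover counting error only. The functions were tested on simulated data.

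Positions 20, 26, 27, 34, 37 and 58, sites with a rate, pooled over the libraries in which it is known, of at least 5% or an unadjusted p under 0.05, and the ends of coverage are named. The members, positions and families were chosen with earlier results of these data known. Libraries of one genotype differed beyond sampling noise (chi-square per degree of freedom 18.2 to 89.5).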

Additional observations from a re-analysis of the deposited data

Results flagged for a closer look

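Tyr-GTA-1 was listed in 2 libraries only, both knockout. Its highest coverage there was 32 reads, at position 52 in knockout replicate 2, where positions 51 to 54 were listed. In knockout replicate 3, positions 55 to 60 had 30 reads each. It had fewer than 30 reads at every position in the 3 wild-type libraries and in knockout replicate 1. It entered edgeR's test of parts, with unlisted libraries as 0, when low counts were not filtered out and in the fits without 1 wild-type library or without knockout replicate 1. It was not called in any of these (lowest adjusted p = 0.0868, edgeR, without knockout replicate 1). The fitted fold changes rest on those zeros and are not given. The knockout libraries were also deeper, with at least 7981301 base calls against at most 6295061, and the part of depth in this was not tested. Over the shared positions Tyr-GTA-3 had 41 reads at 51 to 54 in knockout replicate 2 and 49 to 55 reads at 55 to 60 in knockout replicate 3.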

How the results depend on the processing

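No Tyr-GTA site was called in any of 25 alternatives for each kind of site, but Tyr-GTA sites were tested in only 12 of them for mismatches, 12 for read starts, 10 for deletions and 1 for insertions (without knockout replicate 2). Coverage minimums of 100 and 500 tested none. The combinations with a minimum of 30 were chosen after seeing the data. The Tyr-GTA parts called stayed at 0 in 13 alternatives, with log2 fold changes of 0.23 (median per-position coverage) to 0.95 for the 5′ part and -1.03 to -0.75 for the 3′ part, and a lowest adjusted p of 0.0535 (DESeq2, 3′ part). Upper-quartile scaling moved the median log2 fold change of all parts from 0.09 to -0.08, and the 5′ value to 0.62.

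The log2 ratio difference of 1.65 became 1.19 with median coverage and 4.13 with summed coverage, which grows with the number of listed positions. It ranged from 1.40 to 1.79 when 1 library was left out. The read-start difference at 55 lay between -27.0 points (without wild-type replicate 2) and -0.07 points (without wild-type replicate 3), and was past the threshold in neither. At 58 the mismatch difference lay between 2.96 (without knockout replicate 1) and 12.8 points (without knockout replicate 3) over 11 alternatives. At 59 the read-start difference was -8.10 points without wild-type replicate 3, and at 57 it was -7.60 (limma-moderated adjusted p = 0.473 for both).

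The labels do not say whether same-numbered libraries were made together. The correlations of their deviations were 0.173, 0.0744 and 0.211. The closest knockout library had the same number for wild-type replicates 1 and 3 and not for replicate 2. With the replicate block, 0 Tyr-GTA sites and 0 parts were called, the paired log2 ratio differences were 1.67, 1.30 and 1.97, and their exact permutation p was 0.25, the smallest that 3 pairs can give. Depth limits every value here: no listed Tyr-GTA position reached 100 reads.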
